A study of Heterocephalus glaber with 23 samples.

Results

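Amino acid catabolism was followed in livers of naked mole-rats (NMRs, a colony-living rodent) through a list of 45 enzymes named by gene symbol, of which 44 had a row in the count table used here. HAL, the histidine ammonia-lyase, was not analysed here. All 44 genes passed the filter on low counts, among 12306 of 16339 genes. RNA-seq libraries came from 6 female breeders aged 3.3 to 3.7 years, 5 female non-breeders aged 2.4 to 4.0 years, 6 male breeders aged 2.8 to 4.1 years and 6 male non-breeders aged 2.7 to 4.1 years. In this species 1 pair of a colony reproduces, and the question was whether status or sex goes with a different level of these enzymes. Breeders had been taken out of their colony and paired with an unrelated animal, whereas non-breeders were litter siblings left in the colony, so that housing and colony cannot be told apart from status. Breeding males were sampled days, and breeding females weeks, after the last birth, so that time since birth cannot be told apart from sex among breeders. All 6 female breeders and male breeders 1, 2 and 3 were sequenced with reads 1 base shorter than the other 14 libraries, so that read length cannot be told apart from status in females.

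The liver is the main site at which amino acids taken up beyond the needs of protein synthesis are broken down. A transaminase or a dehydratase removes the amino group, which ends up in urea, and the carbon skeleton is cut by mitochondrial enzymes into pyruvate, intermediates of the citrate cycle or ketone precursors. In well-studied mammals, glucocorticoids and glucagon induce several of the entry enzymes, among them TAT (tyrosine aminotransferase), TDO2 (tryptophan dioxygenase) and SDS (serine dehydratase), so that fasting and high protein intake raise them.

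Libraries held between 11826665 and 22969366 counts, and levels are given as CPM (a gene's counts relative to the library total, after TMM scaling, edgeR's trimmed mean of ratios), a unit that is not corrected for transcript length and only serves to compare 1 gene between libraries. The 44 genes took 2.29% ± 0.256 of all counts (SD, n = 23), between 1.78% and 2.65%. All 8 hepatocyte markers were detected in every library, and ALB, the serum albumin gene, alone took 7.42% to 15.5% of counts. On the first principal component of all genes (26.4% of variance), female breeder 6, male breeder 5 and male non-breeder 3 lay far from the rest, and results that rest on them are given with and without them. In whole liver, fewer hepatocytes and less RNA per hepatocyte cannot be told apart.

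No gene of the list differed between breeders and non-breeders past the threshold (adjusted p of 0.05, edgeR's quasi-likelihood test, Benjamini-Hochberg over 12306 genes) in females, in males or averaged over both sexes. The same count of 0 was obtained with DESeq2 and with limma voom. The background was equally empty, with 0% of all genes called in each of these 3 comparisons. At an unadjusted p of 0.05, 1 of 44 members passed in females (3.7% of all genes), 1 of 44 in males (5.88% of all genes) and 5 of 44 in the average (7.94% of all genes), all 5 being higher in breeders. In none of the members did the breeders of one sex lie wholly above or below its non-breeders, a pattern shown by 0.309% of all genes in females, 0.431% in males and 0% in both sexes together. The median difference over the members was 0.10 on the log2 scale in females, 0.04 in males and 0.09 in the average, against 0.01, -0.02 and -0.005 over all genes. In each comparison 29 of 44 members (65.9%) lay above 0, against 52.1%, 46.6% and 48.7% of all genes in the same order. Scaling by total counts alone moved the median of all genes toward breeders by up to 0.086. The medians of the members stayed above 0 with it, which is no check of their direction because the shift itself was upward. Markers of other cells moved with status as well, none past the threshold. All 5 erythroid markers (median -0.66) and 5 of 6 neutrophil markers (median -0.65) lay below 0 in the average, as did 7 of 8 hepatocyte markers (median -0.14). So did 6 of 8 stellate (-0.26), 7 of 8 endothelial (-0.16) and 7 of 8 macrophage markers (-0.30). In each of these 3 lists 2 markers had an unadjusted p under 0.05, against 0 erythroid and 0 neutrophil markers. By contrast, 3 of 4 striated muscle markers lay above 0 (median 0.85), with 4 of 4 in females (median 1.99) and 2 of 4 in males (median 0.08). Muscle sums were 149.6 and 129.5 CPM in female breeders 2 and 6, against 14.3 to 29.7 CPM elsewhere, so that this median rests on those libraries. Erythroid sums ran from 57.2 to 272.4 CPM in female breeders against 137 to 296 CPM in female non-breeders, and from 62.4 to 347 CPM in male breeders against 112 to 559 CPM in male non-breeders. Neutrophil sums ran from 33.9 to 108 CPM in female breeders against 48.2 to 107 CPM in female non-breeders, and from 27.7 to 94.98 CPM in male breeders against 31.9 to 272.5 CPM in male non-breeders. The part of these cells in the status differences was not tested.

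**Figure D1:**
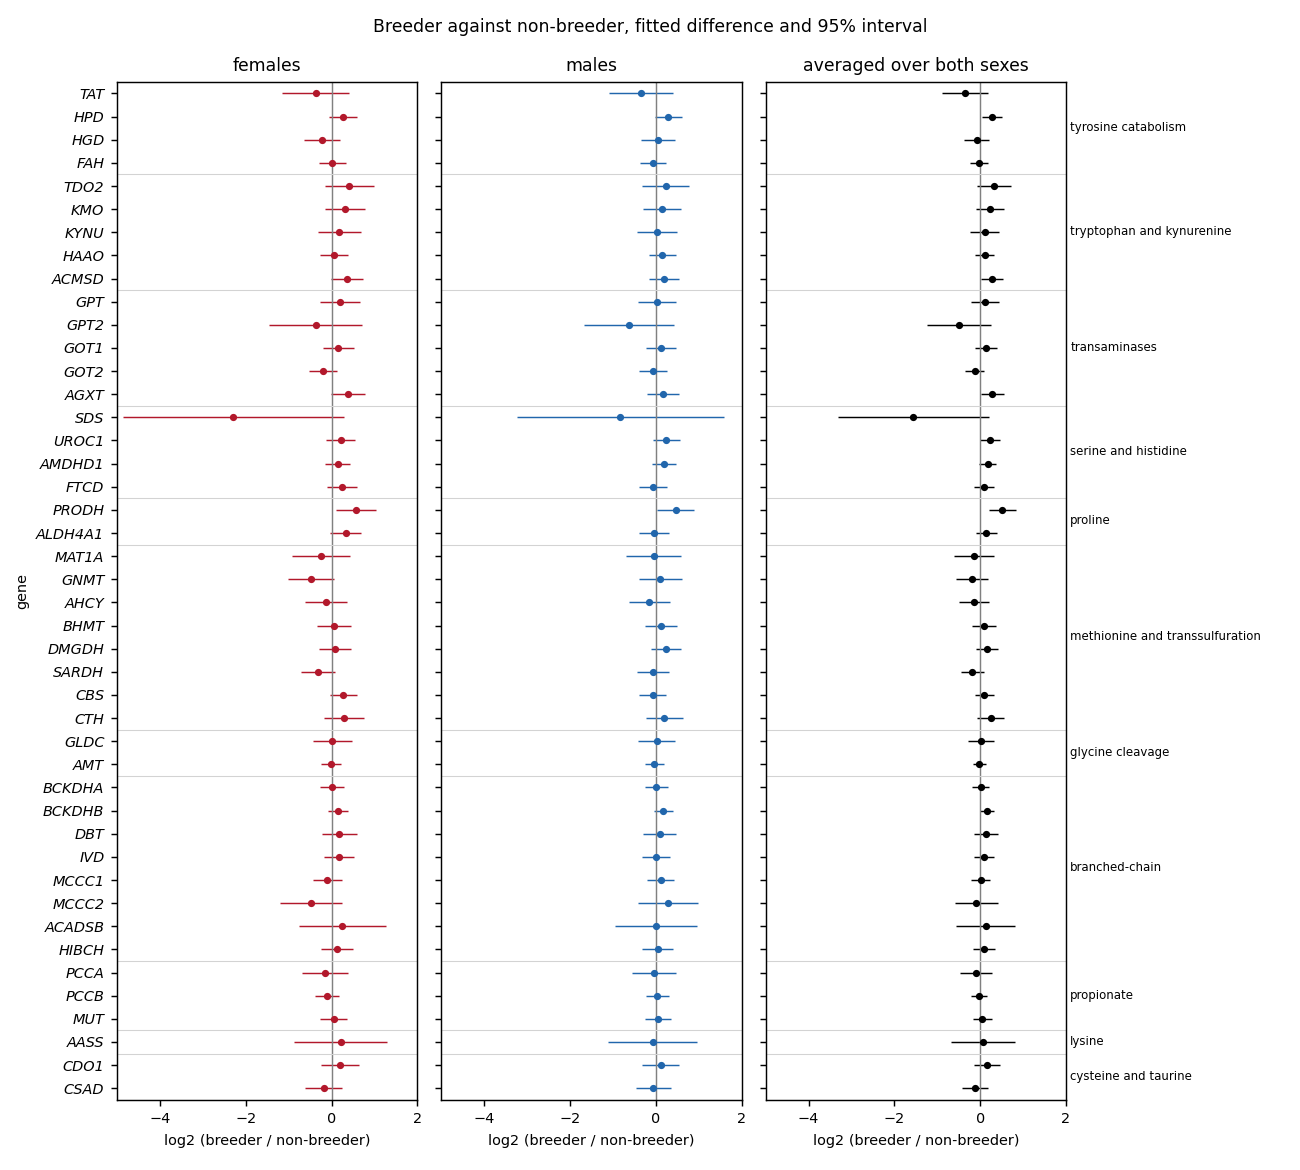
Fitted breeder against non-breeder difference for each of the 44 enzymes on a log2 scale (x axis), in females, in males and averaged over both sexes, with 95% intervals as bars and genes ordered by pathway. Intervals cross 0 for all but 1 gene in females, 1 in males and 5 in the average, and SDS had the widest interval in each panel.

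PRODH, the mitochondrial proline dehydrogenase that opens proline breakdown, had the smallest p of the list in all 3 comparisons. Its level was 23.4, 42.2 and 53.6 CPM (lowest, median and highest) in female breeders, against 20.2, 28.4 and 35.9 CPM in female non-breeders. In male breeders it was 30.7, 33.1 and 51.8 CPM, against 15.2, 26.6 and 37.4 CPM in male non-breeders. The groups overlapped in both sexes, and 11 of 12 breeders lay above the non-breeder mean of log2 CPM for their sex, the measure behind each such count of animals. The fitted difference was 0.51 ± 0.15 on the log2 scale (SE, 95% interval 0.20 to 0.83), or 1.43-fold, and missed the threshold (edgeR adjusted p = 0.343). It was 0.57 ± 0.22 in females and 0.46 ± 0.21 in males. The 3 male breeders with longer reads had 33.7, 32.2 and 30.7 CPM, and among males with longer reads alone the difference was 0.24 ± 0.24. With read length as a covariate the averaged difference was 0.21 ± 0.26. ALDH4A1, the next enzyme of the same route, differed by 0.14 ± 0.12.

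HPD, ACMSD, BCKDHB and AGXT also had an unadjusted p under 0.05 in the averaged comparison, and none passed the threshold. HPD is the hydroxyphenylpyruvate dioxygenase of tyrosine breakdown. It averaged 1529 ± 268 CPM in female breeders and 1271 ± 193 CPM in female non-breeders (SD). Male breeders averaged 1863 ± 239 CPM of HPD, and male non-breeders averaged 1529.6 ± 339 CPM. Its difference was 0.28 ± 0.11 (edgeR adjusted p = 0.506, higher in 11 of 12 breeders), and it was 0.30 ± 0.22 among males with longer reads. ACMSD, which steers the kynurenine route away from NAD synthesis, was higher in 6 of 6 female breeders than the mean of female non-breeders. It averaged 1409 ± 219 CPM in female breeders and 1093 ± 210.0 CPM in female non-breeders. Male breeders averaged 1745 ± 320 CPM of ACMSD and male non-breeders 1529 ± 386 CPM, with close medians of 1660 and 1629 CPM. The averaged ACMSD difference was 0.28 ± 0.12 (edgeR adjusted p = 0.561, higher in 10 of 12 breeders). BCKDHB, a subunit of the branched-chain ketoacid dehydrogenase, lay between 25.7 and 28.0 CPM in all 6 male breeders. In male non-breeders it split into 20.3, 20.6 and 21.6 CPM against 27.5, 27.7 and 27.7 CPM, and the averaged difference was 0.17 ± 0.08 (edgeR adjusted p = 0.602, higher in 11 of 12 breeders).

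AGXT, the aminotransferase that detoxifies glyoxylate, was a member whose fitted direction changed once read length was entered as a covariate. It had 385, 622 and 754 CPM (lowest, median and highest) in female breeders, against 369, 432 and 510.1 CPM in female non-breeders. In male breeders it had 503, 621 and 1105 CPM, against 490.3, 595 and 784 CPM in male non-breeders. The averaged difference was 0.28 ± 0.13 (edgeR adjusted p = 0.602, higher in 9 of 12 breeders), was 0.18 without male breeder 3, and was -0.15 ± 0.21 with read length as a covariate. Among males with longer reads alone it was -0.14 ± 0.17. The fit with read length rests on the male breeders, and the 1105 CPM belongs to male breeder 3, which had shorter reads. Read length and that animal cannot be told apart there.

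**Figure D2:**
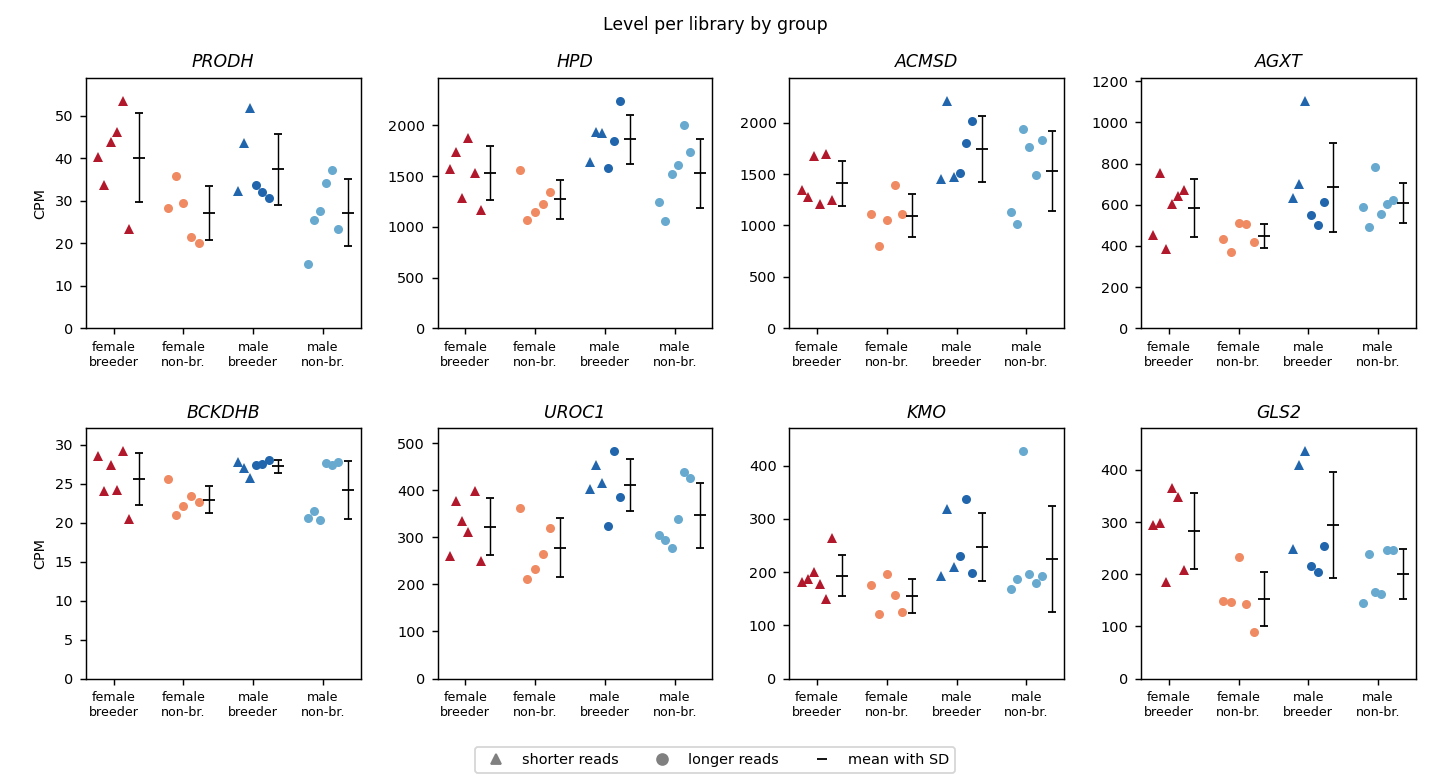
CPM (y axis, from 0) per library for 7 members and for GLS2, in female breeders, female non-breeders, male breeders and male non-breeders, with triangles for shorter and circles for longer reads and the mean with SD beside each group. Breeders and non-breeders of each sex overlap for the 7 members, and the 2 highest GLS2 values, 410.0 and 436 CPM, belong to male breeders with shorter reads.

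By pathway, all 5 members of the tryptophan and kynurenine route had a positive averaged difference, from 0.10 for KYNU, the kynureninase, to 0.32 ± 0.19 for TDO2, which opens the indole ring of tryptophan. TDO2 lay between 94.1 and 333 CPM in female breeders, against 103 to 271 CPM in female non-breeders. In the branched-chain group 7 of 8 members were above 0, at a median of 0.09, with ACADSB, the short/branched acyl-CoA dehydrogenase and the member of this group with the most counts, at 0.13 ± 0.34. In the methionine and transsulfuration group 4 of 8 were above 0, at a median of -0.03. There BHMT, which remethylates homocysteine with betaine, differed by 0.09 ± 0.13, and MAT1A, the S-adenosylmethionine synthase of adult liver, by -0.15 ± 0.23. The histidine members UROC1 (urocanase), AMDHD1 (imidazolonepropionase) and FTCD (formiminotransferase) differed by 0.23 ± 0.11, 0.17 ± 0.10 and 0.09 ± 0.11. The 5 transaminases had a median of 0.11 and ran from -0.49 for GPT2 to 0.28 for AGXT. GLDC, the decarboxylase of glycine cleavage, stood at 0.02 ± 0.15. MUT, the methylmalonyl-CoA mutase of propionate breakdown, stood at 0.05 ± 0.11, AASS, which opens lysine breakdown, at 0.07 ± 0.36, and CDO1, the cysteine dioxygenase, at 0.15 ± 0.15.

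Whether status went with a different change in females than in males was tested as an interaction (female minus male status difference). No member passed the threshold (background 0% of all genes), and none had an unadjusted p under 0.05 (background 1.85%). CBS, the first enzyme of transsulfuration, had the smallest p, with an interaction of 0.35 ± 0.22 on the log2 scale. It averaged 539 ± 150.2 CPM in female breeders and 445 ± 31.6 CPM in female non-breeders, against 502 ± 38.6 CPM in male breeders and 529 ± 90.4 CPM in male non-breeders (SD). GNMT, the glycine methyltransferase that buffers S-adenosylmethionine, followed at -0.58 ± 0.36, with female non-breeders 1 and 2 at 491 and 428 CPM and all other libraries between 118 and 342 CPM.

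Between the sexes, no member passed the threshold either. In non-breeders 0 of 44 members were called (0.0325% of all genes) and in breeders 0 of 44 (0.0488% of all genes), again with 0 in DESeq2 and limma voom. At an unadjusted p of 0.05, 3 of 44 members passed in non-breeders (5.15% of all genes) and 3 of 44 in breeders (5.89% of all genes), all 6 times lower in females. No member had females and males wholly apart, which 0.284% of all genes had in non-breeders and 0.349% in breeders. The comparisons in non-breeders and in breeders share no library, and a comparison of females with males averaged over both statuses was added after they had been seen. In it 0 of 44 members were called (0.065% of all genes), 9 of 44 members had an unadjusted p under 0.05 (10.4% of all genes) and none had all females apart from all males (0.0488% of all genes). All 9 were lower in females, and all 9 were also below 0 with scaling by total counts, with read length as a covariate, without male non-breeder 3 and without the 3 libraries far from the rest. These 9 were picked by their p in the same libraries, so that such refits are no separate test of their direction. Among breeders, markers of several other cells lay higher in females, none past the threshold. All 8 stellate (median 0.62, 4 with an unadjusted p under 0.05), all 8 macrophage (0.32) and all 8 endothelial markers (0.14) were above 0. So were all 6 neutrophil (0.30) and all 4 striated muscle markers (1.55). By contrast, all 5 erythroid markers (median -0.21) and 2 of 3 kidney tubule markers (median -0.45) lay below 0. Stellate sums ran from 112 to 292 CPM in female breeders and from 90.8 to 124 CPM in male breeders. Muscle sums ran from 14.9 to 149.6 CPM (median 19.7) in female breeders and from 15.7 to 29.7 CPM (median 18.7) in male breeders. The muscle difference rests on female breeders 2 and 6, at 149.6 and 129.5 CPM, and DES stands in both the stellate and the muscle list. In non-breeders 3 of 8 stellate and 3 of 8 macrophage markers were above 0. The part of these cells in the sex differences was not tested. The median over the 44 members was -0.03 and turned to 0.06 with scaling by total counts, so that no direction is given for the list as a whole.

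ACMSD had the smallest p of this comparison. In female non-breeders it had 799.6, 1108 and 1390 CPM (lowest, median and highest), against 1014, 1629 and 1943 CPM in male non-breeders. In female breeders it had 1209, 1312 and 1694 CPM, against 1452, 1660 and 2214 CPM in male breeders. The averaged difference was -0.40 ± 0.12 (edgeR adjusted p = 0.281), and 11 of 11 females lay below the mean log2 CPM of the males of their status. KMO, the kynurenine monooxygenase upstream of it, averaged 155 ± 32.7 CPM in female non-breeders and 225 ± 99.5 CPM in male non-breeders, and 193 ± 38.2 CPM in female breeders and 248 ± 63.9 CPM in male breeders. Its averaged difference was -0.45 ± 0.16 (edgeR adjusted p = 0.348, lower in 10 of 11 females), and it was -0.31 ± 0.12 without male non-breeder 3, whose 427 CPM was the highest value. In non-breeders alone the KMO difference was -0.54 ± 0.23, and -0.25 ± 0.17 without that library.

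The histidine enzymes UROC1 and AMDHD1 differed between females and males by -0.33 ± 0.11 and -0.28 ± 0.10 (edgeR adjusted p = 0.346 and 0.355). AMDHD1 averaged 437 ± 35.6 CPM in female non-breeders and 519 ± 108 CPM in male non-breeders. Among breeders it averaged 482 ± 66.8 CPM in females and 595 ± 61.0 CPM in males, and the highest female, 592 CPM, exceeded 3 of the 6 male breeders. BHMT differed by -0.36 ± 0.13 (edgeR adjusted p = 0.382), with 3802 ± 758 CPM in female breeders and 4985 ± 302 CPM in male breeders. AGXT differed by -0.33 ± 0.13 and HPD by -0.28 ± 0.11, and FAH, the last enzyme of tyrosine breakdown, and HAAO, the hydroxyanthranilate dioxygenase, by -0.24 ± 0.11 each. With read length as a covariate ACMSD and KMO were at -0.38 and -0.43, so that the class of reads moved them little.

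SDS spanned a wider range than any other member, and it did so within every group. Female breeders had 12.0, 6.00, 0.466, 9.48, 0.441 and 1.19 CPM, against 74.6, 44.0, 2.33, 0.386 and 0.264 CPM in female non-breeders. Male breeders had 27.8, 7.94, 6.22, 0.652, 0.434 and 2.92 CPM, against 10.8, 32.9, 0.899, 0.641, 35.4 and 1.46 CPM in male non-breeders. Thus 8 of 23 libraries lay below 1 CPM, 2 in each group, and 7 lay above 10 CPM, and the highest value was 282-fold the lowest, which rested on 5 counts. The averaged status difference was -1.56 ± 0.85 (edgeR adjusted p = 0.681, lower in 6 of 12 breeders), within the spread of the groups, and -4.48 ± 1.81 with read length as a covariate (edgeR adjusted p = 0.999). In females it was -2.29 ± 1.25 by edgeR, -1.23 without female non-breeder 1 and -0.14 by limma voom.

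Libraries with high SDS had high TAT. After each gene's group means were removed, TAT and SDS correlated across the 23 libraries with r = 0.74 and rho = 0.78 (permutation p = 5e-05 and 2e-05, adjusted p = 0.00015 and 9e-05 over 9 pairs). Without female breeder 6 and male non-breeder 3, which had 389 and 525 CPM of TAT, r was 0.80. GPT2, the mitochondrial alanine transaminase, followed TAT with r = 0.85 and rho = 0.783 (permutation p = 1e-05, the smallest that 100000 permutations can give, and 3e-05, adjusted p = 9e-05 for both), and r = 0.761 without the same 2 libraries. PCK1, the gluconeogenic carboxykinase, lies outside the list and was paired with both. It correlated with SDS with r = 0.784 and rho = 0.785 (permutation p = 3e-05 for both, adjusted p = 0.000135 and 9e-05), and r = 0.769 without female non-breeders 1 and 2. Split by SDS level, r of SDS and PCK1 was -0.333 in the 8 libraries below 1 CPM of SDS and 0.275 in the 15 above. TAT and SDS gave r of 0.457 and 0.669 in the same sets. The sets were made by SDS itself, which narrows its range and can lower r in each. The libraries of the lower set held 5 to 14 counts of SDS. The split thus cannot decide whether either relation holds at each level of SDS. TAT with PCK1 gave r = 0.511 and rho = 0.596 (permutation p = 0.0125 and 0.00323, adjusted p = 0.0225 and 0.00727), and r = 0.606 without female breeder 6 and male non-breeder 3.

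Within the 14 libraries with longer reads these 4 relations had r of 0.837, 0.858, 0.817 and 0.731, in the same order, and within the 9 with shorter reads 0.464, 0.89, 0.747 and 0.097. The TAT and PCK1 relation was thus not seen within the shorter class. TAT and TDO2, both glucocorticoid targets, gave r = 0.62 (permutation p = 0.00196, adjusted p = 0.00441) but rho = 0.331 (permutation p = 0.124, adjusted p = 0.186). Without female breeder 6 and male non-breeder 3 r was 0.281 (adjusted p = 0.387), so that this relation rests on those libraries. It was 0.774 within the shorter and 0.544 within the longer class, which hold 1 of the pair each. Partners in 1 complex or route did not pass the threshold by the same test. The r was -0.02 for CBS and CTH (cystathionine gamma-lyase), -0.09 for BCKDHA and BCKDHB (2 subunits of 1 dehydrogenase), 0.13 for PCCA and PCCB (2 subunits of propionyl-CoA carboxylase) and 0.37 for MAT1A and GNMT (permutation p = 0.928, 0.681, 0.555 and 0.0912, adjusted p = 0.928, 0.766, 0.713 and 0.137). Their rho was -0.06, 0.09, 0.18 and 0.41 (adjusted p = 0.782, 0.749, 0.534 and 0.092), and r without the 2 farthest libraries was -0.18, 0.07, 0.24 and 0.15. Within the shorter class r was 0.24, -0.63, -0.22 and 0.80, and within the longer class -0.41, 0.38, 0.39 and 0.26, so that 3 of these 4 pairs changed sign between the classes.

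**Figure D3:**
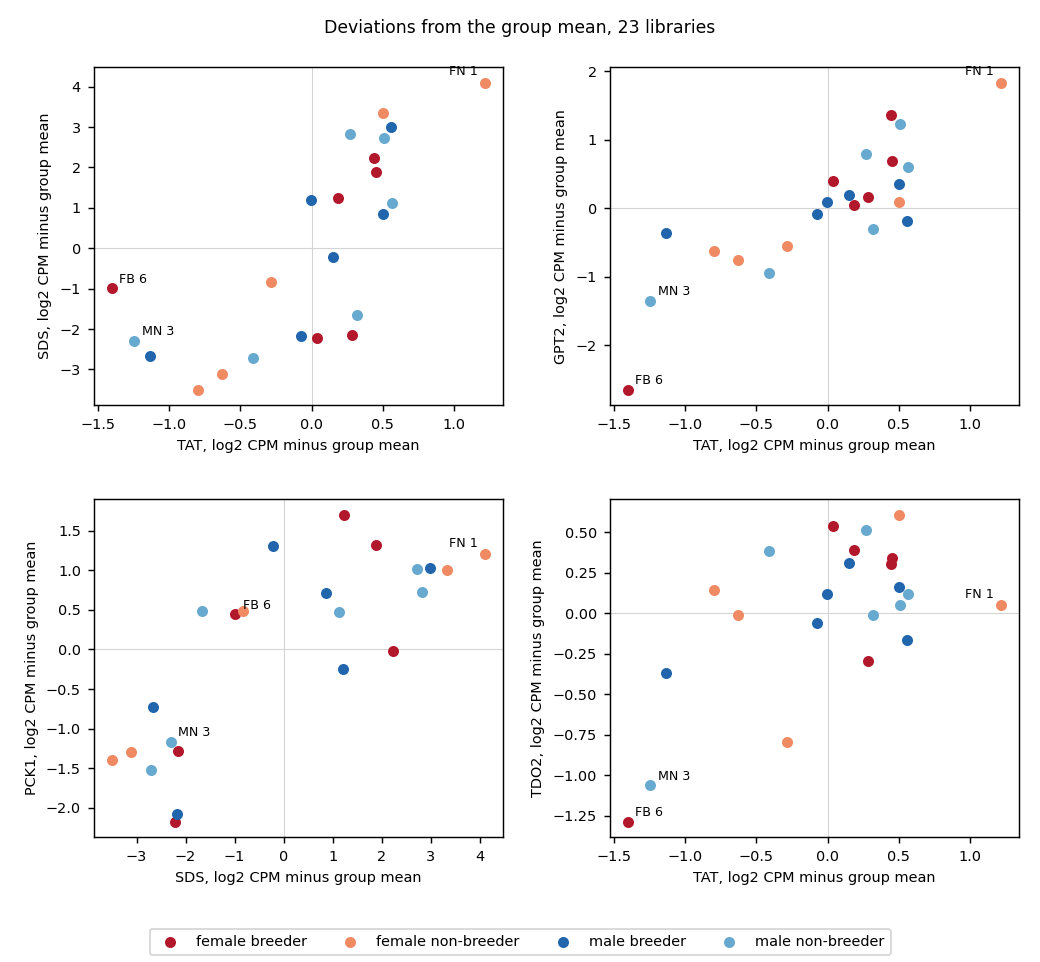
Deviations of log2 CPM from the group mean for SDS and GPT2 against TAT, PCK1 against SDS, and TDO2 against TAT, 1 point per library coloured by group, in 23 libraries. SDS and GPT2 are higher in libraries with more TAT (r = 0.74 and 0.85), whereas the TDO2 panel turns on FB 6 (female breeder 6) and MN 3 (male non-breeder 3); FN 1 is female non-breeder 1.

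AASS, ACADSB and MCCC2 reached far below their usual level in single libraries. AASS is the bifunctional first enzyme of lysine breakdown. It had 2.70 CPM in male non-breeder 3 (42 counts), against 55.3 to 94.5 CPM in the other 5 male non-breeders. ACADSB had 37.4 CPM in that library, against 600.7 to 1200 CPM, and MCCC2, a subunit of methylcrotonyl-CoA carboxylase in leucine breakdown, had 25.4 CPM, against 105 to 199 CPM. AASS showed the lowest position of all 12306 genes in that library relative to the rest of its group. In female breeder 6 AASS had 10.7 CPM, against 47.6 to 106 CPM in the other female breeders. In male breeder 5 it had 22.3 CPM, against 44.6 to 79.7 CPM in the other male breeders.

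These are the 3 libraries that stood apart on all genes, and their position there used the members too. Of the 44 members, 12 were the lowest of their group in all 3 libraries: TAT, TDO2, KYNU, GPT2, MAT1A, CTH, MCCC2, ACADSB, PCCA, MUT, AASS and CSAD, the cysteinesulfinate decarboxylase of taurine synthesis. KMO alone was the highest of its group in all 3. The share of all genes with either pattern was not counted, so that these counts are not read as a trait of the enzymes. Over all 23 libraries, male non-breeder 3 held the lowest value of 27.3% of members and 23.3% of all genes. For female breeder 6 these shares were 22.7% and 7.45%, and for male breeder 5 they were 0% and 2.9%. In male non-breeder 3, 13 of 44 members and 16% of all genes lay more than 1 log2 unit below the rest of the group. That library had a neutrophil marker sum of 272.5 CPM, against 27.7 to 199 CPM elsewhere. Most of it was S100A8 and S100A9, at 108 and 128 CPM, the 2 of 7 markers at their highest. The rest, such as MPO at 0.128 CPM, lay within their ranges elsewhere (0.126 to 2.23 CPM for MPO), with CXCR2 and MMP8 at 0 in 1 and 2 libraries. The erythroid marker sum of male non-breeder 3 was 559 CPM, against 57.2 to 347 CPM elsewhere, nearly all of it HBB, at 547 CPM. Its bile duct marker sum was 316 CPM, against 148 to 244 CPM elsewhere, with 3 of 5 markers at their highest and most of it EPCAM, at 286 CPM. In female breeder 6 the striated muscle sum was 129.5 CPM, and it was 149.6 CPM in female breeder 2 and 14.3 to 29.7 CPM elsewhere. The hepatocyte markers of male non-breeder 3 did not move one way. ALB was at 87610 CPM, within its range of 74870 to 176400 CPM in the others, whereas CPS1, the carbamoyl-phosphate synthase that opens the urea cycle, was at 304 CPM, against 762 to 4465 CPM. APOA1, TTR and SERPINA1, which encode plasma proteins, were at their highest there, at 1395, 6675 and 10990 CPM. The part of these in the enzyme levels was not tested.

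**Figure D4:**
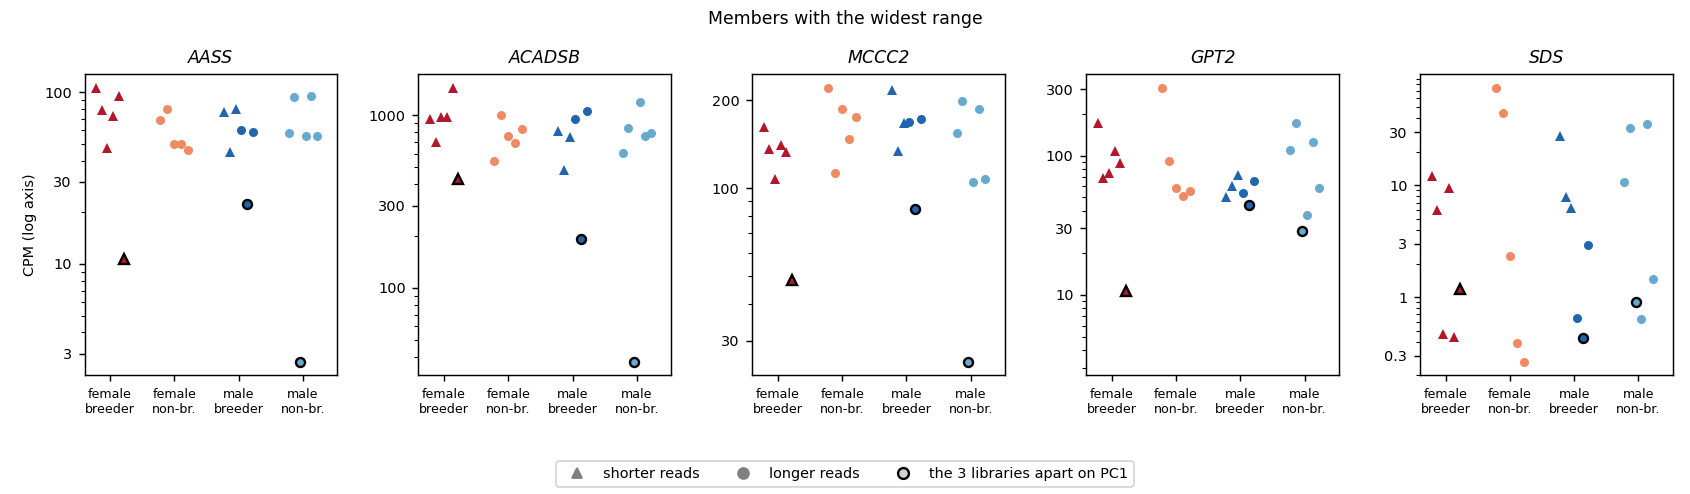
CPM on a log axis per library for the 5 members with the widest range, in female breeders, female non-breeders, male breeders and male non-breeders, with the 3 libraries that stand apart ringed. AASS, ACADSB, MCCC2 and GPT2 are lowest in their group in each ringed library, whereas SDS runs below 1 CPM in 2 libraries of each group.

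Without these 3 libraries no member was called in any comparison, and 9 members in place of 5 had an unadjusted p under 0.05 in the averaged status comparison. The share of all genes at that p without these libraries was not counted. PRODH then differed by 0.59 ± 0.15 and stayed short of the threshold (edgeR adjusted p = 0.249, and 0.128 to 0.999 over all alternatives). The spread within groups of a typical member was 0.32 on the log2 scale (median of within-group SDs), against 0.36 over all genes and 0.29 over the 6581 genes of at least the members' lowest mean level. It ran from 0.16 for BCKDHB and AMT, the aminomethyltransferase of glycine cleavage, to 2.58 for SDS.

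**Figure D5:**
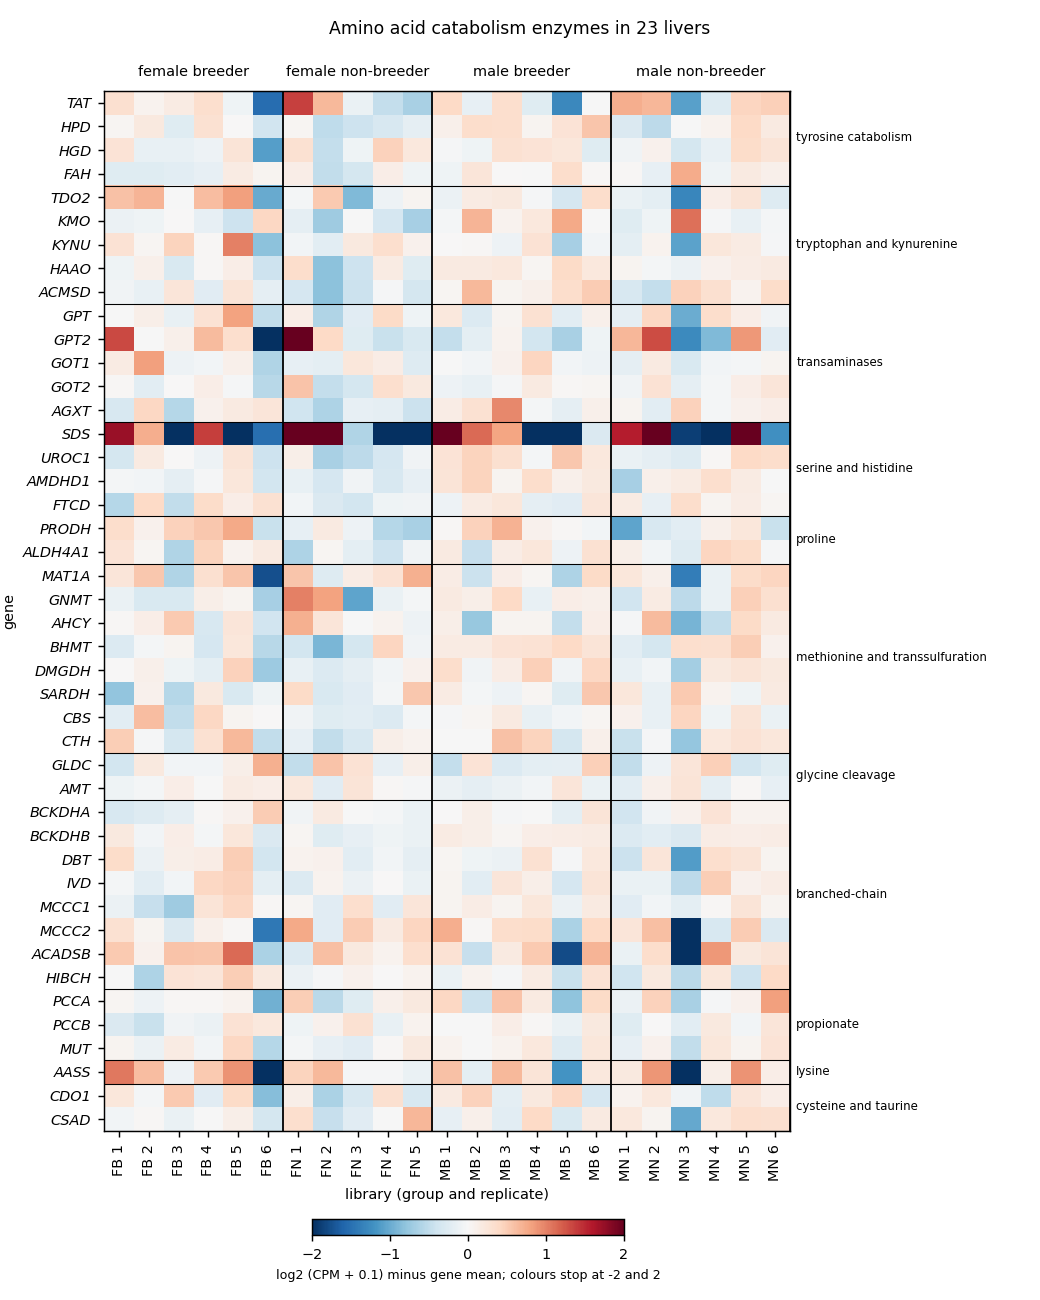
Heat map of the 44 enzymes (rows, by pathway) in 23 livers (columns, FB female breeder, FN female non-breeder, MB male breeder, MN male non-breeder), coloured by log2 (CPM + 0.1) minus the gene's mean. SDS alternates between high and low within each group, and FB 6, MB 5 and MN 3 hold the lowest AASS and ACADSB of their groups.

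Age was tested as a slope beside group, over 2.4 to 4.1 years. No member passed the threshold (0% of all genes, with 0 members in DESeq2 and limma voom as well), and 5 of 44 members had an unadjusted p under 0.05 (8.02% of all genes), all 5 with a negative slope. PCCA had the smallest p, with -0.59 ± 0.15 log2 units a year (SE, edgeR adjusted p = 0.578). It had 281.6 CPM in female non-breeder 1, aged 2.4 years, and its highest level, 354 CPM, in male non-breeder 6, aged 2.8 years. Male breeder 5 and male non-breeder 3, both aged 4.1 years, had 115 and 129 CPM, but the lowest level, 103 CPM, was in female breeder 6, aged 3.3 years. The slope was -0.50 ± 0.11 without the 3 libraries that stood apart. AHCY, the adenosylhomocysteinase, had -0.49 ± 0.14, GOT2, the mitochondrial aspartate transaminase, -0.24 ± 0.11, TAT -0.62 ± 0.24 and GPT2 -0.74 ± 0.34. Female non-breeder 1 was both the youngest animal and the library with the highest TAT (2870 CPM), GPT2, SDS and GOT2, and without it the slopes of TAT, GOT2 and GPT2 were -0.41, -0.16 and -0.25. Over all 44 members the median slope was -0.09, with 11 above 0, against 0.01 over all genes, and the median was -0.03 with scaling by total counts.

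Of 57 further genes of amino acid catabolism that were tested, none passed the threshold in the averaged status comparison, 33 lay above 0 and 5 of 57 had an unadjusted p under 0.05, or 8.77%, close to the 7.94% of all genes. GLS2, the liver glutaminase that feeds glutamine nitrogen to the urea cycle, exceeded the non-breeder mean of log2 CPM for the same sex in 12 of 12 breeders. It had 184, 296 and 366 CPM (lowest, median and highest) in female breeders, against 89.3, 147 and 234 CPM in female non-breeders. In male breeders it had 204, 251 and 436 CPM, against 145, 203 and 247 CPM in male non-breeders. The averaged difference was 0.72 ± 0.17 (edgeR adjusted p = 0.236). Among males with longer reads it was 0.15 ± 0.21, and with read length as a covariate the averaged difference was 0.18 ± 0.28. CARNS1, the carnosine synthase, differed by 0.74 ± 0.21 at 0.578 to 2.23 CPM (edgeR adjusted p = 0.321, higher in 11 of 12 breeders), and AADAT, an aminoadipate and kynurenine transaminase, by 0.29 ± 0.11 (edgeR adjusted p = 0.451, higher in 11 of 12 breeders). Between females and males averaged over both statuses, 16 of these 57 genes lay above 0 and 41 below, and none passed the threshold. IL4I1, an L-amino acid oxidase, had the smallest p there, with -0.59 ± 0.18 (edgeR adjusted p = 0.281).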

How the data were processed

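Poly(A) RNA of 23 NMR livers had been sequenced single-end with an unstranded kit, so that a gene and its antisense partner share reads. The authors aligned the reads with STAR 2.4.1d (submitters' processing notes), kept uniquely mapped reads, and used HTSeq to count them over the species' transcript catalogue. The deposited values are raw counts, without normalization, in 16339 rows, of which 803 were at 0 throughout. Genes of near-identical copies may be undercounted.

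Counts were fitted in R 4.3.3 with edgeR 4.0.16 (filterByExpr with a minimum count of 10 and a minimum total of 15, TMM, robust quasi-likelihood F-test, two-sided) on all 23 libraries with 1 mean per group, and adjusted by Benjamini-Hochberg over 12306 genes at 0.05. The scripts were tested on simulated data. DESeq2 1.42.0, limma 3.58.1 and the other alternatives are in the closing section. Groups follow the sample titles, each with its own animal number. The read-length class came from the study's list of libraries. Intervals are 95% intervals of the fitted difference or slope. They reflect its uncertainty given the spread between these animals and are not a range of single animals. Correlations used 100000 permutations, two-sided, over 9 pairs.

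The members, pathway lists and tests were chosen with earlier results of these data known. Named genes are, per comparison, the members of smallest p up to 6, the member with the most counts of each group, those of the 9 pairs and, per further list, the 3 genes of smallest p, of which 1 is not reported here, and others named were chosen after their values were seen.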

Additional observations from a re-analysis of the deposited data

Results flagged for a closer look

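Single libraries lay far from the rest of their group for 7 of 136 member and group combinations tested among the 34 named members (Dixon's test), where chance marks about 1 in 20. Over all 44 members it was 10 of 176, and both counts lay near that share. TAT was at 389 CPM in female breeder 6, against 1051 to 1401 CPM in the other 5 female breeders, and PCCA was at 103 CPM in the same library, against 187 to 212 CPM. FAH was at 442 CPM in male non-breeder 3, against 237 to 299.7 CPM in the other 5 male non-breeders, and KMO was at 427 CPM there, against 168 to 196 CPM. GPT2 was at 307 CPM in female non-breeder 1, against 51.0 to 91.6 CPM in the other 4 female non-breeders. AGXT was at 1105 CPM in male breeder 3, against 503 to 702 CPM, and SDS was at 27.8 CPM in male breeder 1, against 0.434 to 7.94 CPM in the other 5 male breeders.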

How the results depend on the processing

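The count of members called stayed at 0 in all 7 comparisons and in the slope on age under every alternative run (scaling, filter, DESeq2, limma voom, age or read length as a covariate, a threshold of 0.01, fewer libraries, and each library left out in turn), and the smallest adjusted p of any member was 0.126. Median differences moved by less than the spread between libraries (0.17). AGXT turned to -0.163 in females and -0.147 in the averaged status comparison with read length as a covariate. The correlation of TAT and TDO2 was 0.281 without the 2 libraries farthest in TAT and 0.13 without the 3 libraries that stand apart. Counts of members at an unadjusted p under 0.05 moved more, and with total counts as the scaling they were 7 in females, 5 in males and 9 in the average, against 1, 1 and 5. They ran from 1 to 7, 0 to 5 and 1 to 9 over all alternatives, with 0 to 2 for the interaction, 1 to 8 and 0 to 5 between the sexes in non-breeders and in breeders, 5 to 9 between the sexes averaged, and 3 to 8 for age. The share of all genes at that p was not counted for the alternatives, so that a change in these counts is not read as one of the members. Total counts as the scaling moved the median of all genes toward breeders by 0.0859 in females, 0.0845 in males and 0.0852 in the average. The alternatives for the slopes were chosen after seeing the data. No paired analysis was possible because replicate numbers follow accession order and the labels name no litter. Both read lengths occur within 1 group only, the male breeders, so that the fits with read length rest on those 6 libraries. The correlation of UROC1 with HAL was not run.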

Other observations

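No gene outside amino acid catabolism that fasting or glucocorticoids induce in the liver of other mammals passed the threshold between breeders and non-breeders by edgeR. Of 11 such genes tested, 10 had a negative averaged status difference, at a median of -0.46 on the log2 scale, and 1 lay above 0, against 48.7% of all genes. Of the 11, 2 had an unadjusted p under 0.05, against 7.94% of all genes. IGFBP1, a hepatic binding protein of insulin-like growth factors that insulin suppresses, averaged 596 ± 196 CPM in female breeders and 983 ± 465.5 CPM in female non-breeders, and 712 ± 389 CPM in male breeders and 1283 ± 639 CPM in male non-breeders (SD). Its difference was -0.79 ± 0.27 (edgeR adjusted p = 0.408, below the log2 CPM mean of same-sex non-breeders in 10 of 12 breeders), and -1.77 ± 0.47 with read length as a covariate. FGF21, a fasting hormone of the liver, differed by -1.23 ± 0.55 (edgeR adjusted p = 0.569, lower in 10 of 12 breeders) and PER1, a clock gene with a glucocorticoid response, by -0.46 ± 0.23 (edgeR adjusted p = 0.633, lower in 8 of 12 breeders). Feeding state and time of day at sampling are not in the labels, and their part was not tested.

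Of 11 transcription factors, coactivators and hormone receptors that control this metabolism, 4 lay above 0 and 7 below in the same comparison. KLF15, which drives amino acid catabolism in mouse liver, differed by -0.41 ± 0.21 (edgeR adjusted p = 0.664), and PPARGC1A, a fasting-induced coactivator, by -0.66 ± 0.35 (edgeR adjusted p = 0.669), each lower in 9 of 12 breeders by the same measure.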
